A study of Drosophila melanogaster with 3 samples.

Results

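The Sm core protein genes of Drosophila are SmB, SmD1, SmD2, SmD3, SmE, SmF and SNRPG, and all 7 were taken by symbol from the Ensembl annotation, which holds 13945 protein-coding genes on the main chromosome arms (18164 genes of every type). Occupancy around their starts was read from a ChIP-seq experiment on embryos aged 0 to 24 hours, of both sexes pooled, from a single transgenic line that stably expressed CG3995 with GFP at its C terminus. Chromatin was fragmented to between 200 and 800 bp and recovered with an antibody against GFP. The 3 libraries, each labelled as a biological replicate, formed 1 group, so no treatment or genotype could be compared and the Sm genes are set against the other genes of the genome. The fusion was expressed from a transgene, whole embryos mix many cell types and stages, and no GFP control immunoprecipitation was analysed here, so the recovery of any open promoter cannot be told apart from binding by the fusion protein.

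Sm proteins assemble on small nuclear RNAs into the ring that forms the core of the U1, U2, U4 and U5 spliceosomal particles. Before assembly they exist as the pair SmD1 and SmD2, the pair SmB and SmD3, and the trio SmE, SmF and SmG, the last being encoded by SNRPG. The survival motor neuron complex loads these units onto the RNA. Many genes of this kind, needed in every cell, have promoters with the DNA replication-related element (DRE), which the factor DREF binds, or with Motif 1, which the factor M1BP binds. Neighbouring housekeeping genes of the fly often start back to back on opposite strands and share the short stretch between their starts, an arrangement called head to head below.

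The promoters of 5 Sm genes are shown first. Their strongest summits lie in them, and the stretches differ in length, in motif and in where the summit falls. They are RefSeq sequence of the Release 6 assembly (dm6), read 5′ to 3′ along the Sm gene on the minus strand, and positions count upstream from the start base. Capitals mark the DRE (TATCGATA), its core (CGATA on either strand), Motif 1 (GGTCACAC on either strand) and its core (GTCAC on either strand). The SmB sequence is the whole interval up to the start of KdelR, chr2L:10426628-10426886, and the strongest summit falls on its base 206. The SmD1 sequence covers chr3L:12734645-12734944, which begins beside the start of Ptp69D and ends 34 bp before SmD1, with the summit on base 48. The SmD2 sequence is the interval up to CG18048, chr3R:6345912-6346110, with the summit on base 124. The SmE sequence is the interval up to CG34132, chr2L:7885451-7885502, with the summit on base 33. The SNRPG sequence is the 300 bases before its start, chrX:16640420-16640719, with the stronger summit on base 238.
SmB: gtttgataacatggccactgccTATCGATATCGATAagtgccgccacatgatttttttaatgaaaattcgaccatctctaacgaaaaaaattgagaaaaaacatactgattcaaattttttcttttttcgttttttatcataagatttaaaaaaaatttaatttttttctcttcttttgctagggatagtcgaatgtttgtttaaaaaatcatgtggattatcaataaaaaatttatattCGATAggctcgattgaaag
SmD1: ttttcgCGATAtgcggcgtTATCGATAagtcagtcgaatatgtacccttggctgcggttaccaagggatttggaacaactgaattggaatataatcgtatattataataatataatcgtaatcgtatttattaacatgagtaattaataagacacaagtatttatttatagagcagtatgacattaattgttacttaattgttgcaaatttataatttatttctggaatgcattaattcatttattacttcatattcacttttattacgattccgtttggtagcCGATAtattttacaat
SmD2: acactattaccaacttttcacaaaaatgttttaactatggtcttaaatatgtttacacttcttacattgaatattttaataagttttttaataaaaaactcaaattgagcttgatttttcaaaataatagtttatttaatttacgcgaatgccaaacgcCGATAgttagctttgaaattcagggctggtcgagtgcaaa
SmE: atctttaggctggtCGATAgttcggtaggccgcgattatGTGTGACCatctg
SNRPG: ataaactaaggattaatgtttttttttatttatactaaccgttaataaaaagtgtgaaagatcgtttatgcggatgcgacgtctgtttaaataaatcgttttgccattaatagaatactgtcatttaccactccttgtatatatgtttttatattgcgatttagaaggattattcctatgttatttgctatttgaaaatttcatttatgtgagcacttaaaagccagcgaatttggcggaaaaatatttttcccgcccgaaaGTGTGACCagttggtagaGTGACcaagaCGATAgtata
The SmE interval is 52 bases long and holds a DRE core and a complete Motif 1 with the summit between them. SNRPG has Motif 1, a second Motif 1 core and a DRE core in the last 38 bases before its start. SmB and SmD1 hold complete DREs at the far end of their intervals, next to the neighbouring start, and 1 DRE core closer to their own within the stretch shown.

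The deposited lists gave, for each region, an interval, a summit (the single base the caller gives as the point of the region) and a signal value from the authors' peak caller, which has no unit and is compared here only within a list. A thresholded list of 4260 regions summarised all 3 replicates. It was identical to the strongest 4260 of the 27868 regions in the list called from pooled replicates. The replicate lists held 30000, 28051 and 24171 regions, background included, so each was read by rank, and its strongest 4260 were used where a cut was needed. Read depth was unknown. Of the thresholded regions 63.5% had the same width of 416 bp with the summit at their middle base, and no list had a pair of summits closer than 199 bp, which limits how finely a summit can be placed.

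A gene is called bound below where at least 1 summit of the thresholded list fell no more than 500 bp from its start. By this rule 6 of the 7 Sm genes were bound, all but SmF, against 28.2% of all protein-coding genes. Each Sm gene had a single annotated start, and of coding genes with a single start 23.7% were bound. The Sm genes differed from most genes in how they are arranged, since 5 of 7 had a head-to-head coding start within 500 bp, against 27.4% of protein-coding genes. Such genes were bound more often in general, 57.6% of those with a head-to-head start and 17.2% of those without. The 5 Sm genes with such a start were all bound, and of all bound coding genes 55.8% had one. SNRPG was bound with its nearest head-to-head start just beyond the limit, at 549 bp, and SmF, the gene not bound, had no other start within 1000 bp. The part of this arrangement in the count was not tested. In the replicates taken singly, summits among the strongest 4260 regions lay within 500 bp of 6 Sm genes in replicate 1 (28% of coding genes), 6 in replicate 2 (28%) and 5 in replicate 3 (26.3%). All 3 replicates had one at 5 of 7 Sm genes, against 21.9% of coding genes, and the exceptions were SmD1 and SmF.

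**Figure D1:**
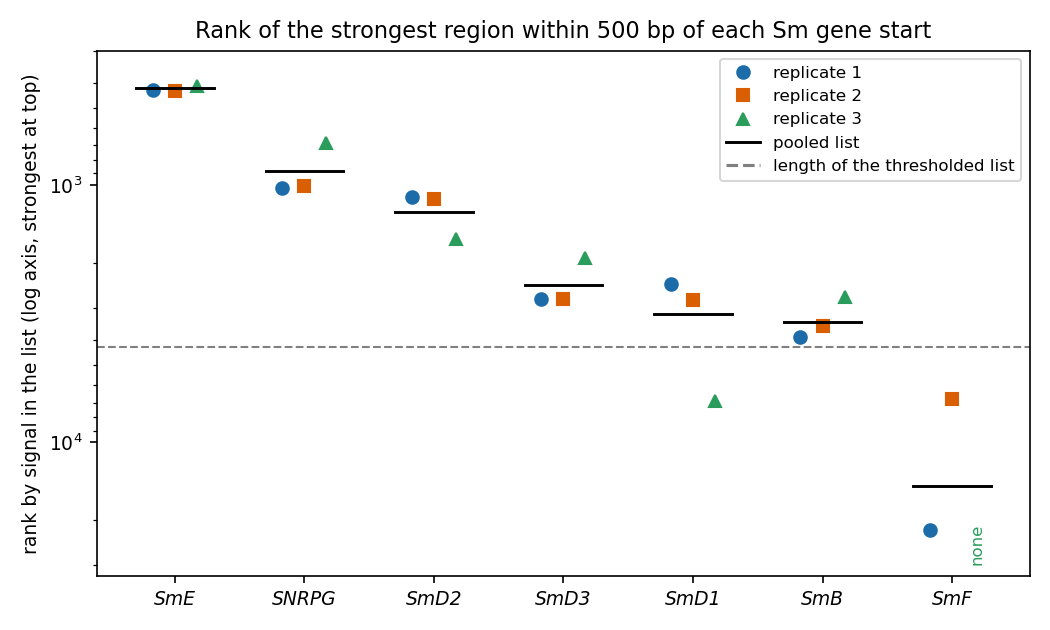
Rank by signal of the strongest region within 500 bp of each Sm gene start, in each replicate list (coloured symbols) and in the pooled list (black bars), on a log axis with the strongest at the top. The dashed line is the length of the thresholded list, 4260. SmE lies at ranks 411 to 431 in all 3 replicates, SmD1 falls below the line in replicate 3 with rank 6895, and SmF lies below it throughout.

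The unit of SmE, SmF and SNRPG held both the strongest Sm promoter and the only one without a thresholded region. SmE (FBgn0261790) lies on 2L from 7884930 to 7885450, minus strand, within an intron of CG7102. Its thresholded region, from 7885325 to 7885618, had a signal of 991 and rank 417 of 4260. The summit was 20 bp upstream of the SmE start and 33 bp from that of CG34132, which starts 53 bp away on the other strand. In the replicates the strongest summit of SmE had rank 426, 431 and 411, at offsets of 0, -28 and -20 bp (negative is upstream). All 3 ranks and positions were close together, and the summit of replicate 2 was nearer to CG34132, by 25 bp against 28 bp.

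SNRPG (FBgn0261791), which encodes SmG, lies on X from 16639810 to 16640419, minus strand. It had 2 thresholded summits, both in the intergenic stretch towards mthl1, a gene of the Methuselah-like receptor family. The stronger, 63 bp upstream, had a signal of 460 and rank 879. The other, 278 bp upstream and about midway to mthl1, had a signal of 271 and rank 1693. Replicates 1, 2 and 3 each had both, the stronger at ranks 1025, 1008 and 683 and offsets of -63, -42 and -74 bp. The weaker had ranks 1647, 1503 and 1389 and offsets of -330, -339 and -274 bp. The pair was 267, 297 and 200 bp apart in the replicates, beside a smallest spacing of 199 bp in each list.

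SmF (FBgn0000426) lies on 2R from 12183844 to 12184310, minus strand, within introns of CG13175 and CG33964. The pooled list had a region 49 bp downstream of its start with a signal of 47.3 and rank 14815, below the lowest thresholded signal of 127. Replicate 1 had a region at -12 bp with rank 21855, and replicate 2 one at 79 bp with rank 6792. Replicate 3 had none within 500 bp. The authors' -log10 q-value was 0.349 for the pooled region of SmF, against 3.91 for each of the thresholded Sm summits, a value shared by 4036 regions. A region of any strength lay within 500 bp of all 7 Sm genes in the pooled list, against 57.3% of protein-coding genes. It was listed in all 3 replicates at 6 of the 7, against 43.3%.

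At SmD1 and SmD2, which pair before assembly, several of the replicate summits were nearer to the start of the gene upstream. SmD2 (FBgn0261789) lies on 3R from 6345000 to 6345911, minus strand, with CG18048 starting 200 bp away. Its stronger thresholded region was 120 bp wide, from 6345910 to 6346029, with a signal of 343, rank 1266 and a summit at -76 bp. A second, of signal 179 and rank 2858, had its summit at -279 bp in the 5′ UTR of CG18048. The replicates gave rank 1116, 1130 and 1617 for the strongest summit, at -78, -138 and -220 bp. Replicate 1 was nearer to SmD2 than to CG18048, and replicates 2 and 3 were nearer to CG18048, at 62 and 20 bp from its start. The pair of thresholded SmD2 summits was 203 bp apart, close to the smallest spacing in the list.

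SmD1 (FBgn0261933) lies on 3L from 12733364 to 12734611, minus strand. Its upstream neighbour Ptp69D, a receptor tyrosine phosphatase of axon guidance, starts 334 bp away. The thresholded summit had a signal of 164 and rank 3171 and was 286 bp upstream of SmD1 but 48 bp upstream of Ptp69D. The replicates placed the strongest summit at -190, -178 and -286 bp with rank 2420, 2789 and 6895. All 3 were nearer to Ptp69D than to SmD1, and the rank in replicate 3 was outside the strongest 4260. SmD1 was no longer called, and 5 of 7 Sm genes were, with each summit given to the nearest start alone (20.6% of protein-coding genes), with a limit of 200 bp (22.6%) or with the interval required to cover the start (22.1%).

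SmB and SmD3, which also pair before assembly, had thresholded summits close to their own starts. SmD3 (FBgn0023167) lies on 2R from 12168731 to 12170003, plus strand, in an intron of Oda, which encodes ornithine decarboxylase antizyme and has a start 243 bp away. The thresholded summit at -42 bp had a signal of 204 and rank 2434. In the replicates the strongest summit had rank 2774, 2772 and 1927 at -74, -40 and -150 bp, and the last was nearer to Oda, 93 bp from its start. SmB (FBgn0262601) lies on 2L from 10425483 to 10426627, minus strand, 260 bp from the start of KdelR, the receptor that returns proteins to the endoplasmic reticulum. Its thresholded summit at -54 bp had a signal of 155 and rank 3401, the lowest of the Sm genes called. The replicates gave rank 3888, 3541 and 2713 at -42, -75 and 107 bp. Replicate 3 thus placed the strongest SmB summit in the 5′ UTR, and a second one at -178 bp with rank 3396, while the other lists had their strongest summit in between. Weaker summits lay beside the KdelR start, at -247 bp of SmB in replicate 1 and -276 bp in replicate 2, with rank 4956 and 25109.

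**Figure D2:**
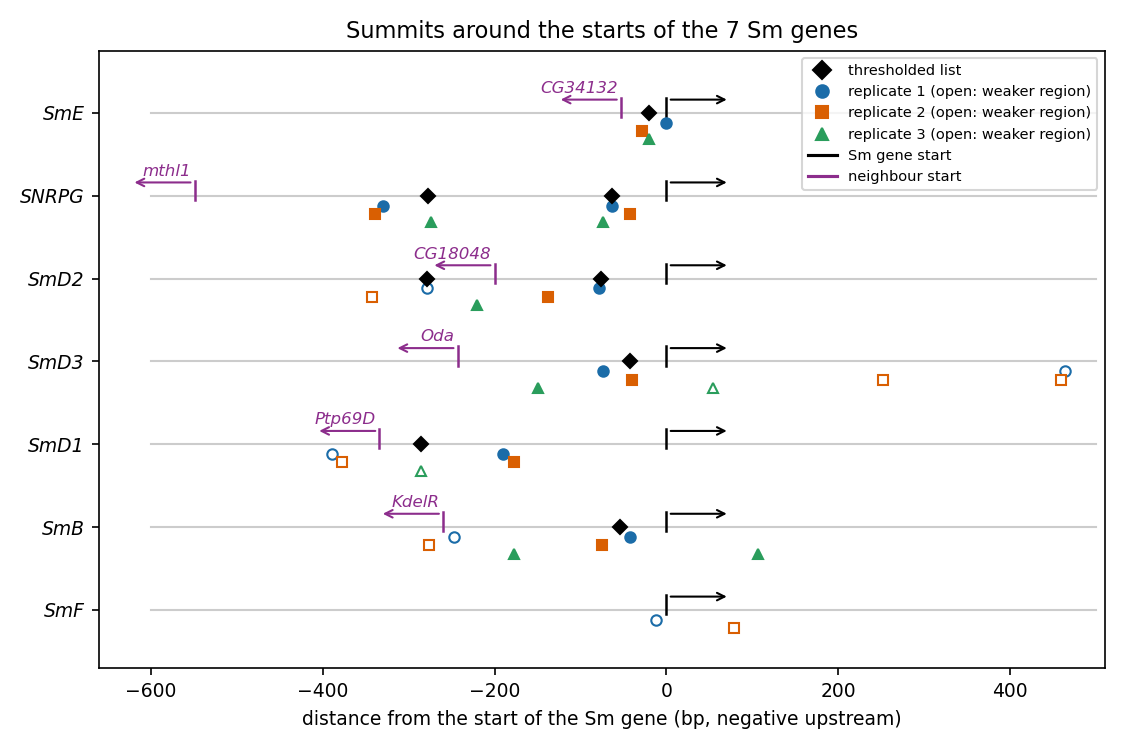
Summits around the start of each Sm gene, as distance in bp with upstream negative. Black diamonds are the thresholded list and coloured symbols the replicates (open where outside the strongest 4260 regions), with Sm starts in black and head-to-head starts in purple. The strongest thresholded summits lie between -20 and -286 bp, and of these 6 that of SmD1 is the one nearer to its neighbour's start than to its own.

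Ordered by mean rank over the replicates, SmE came first with 423 ± 10.4 (SD, n = 3, as for the ranks that follow), then SNRPG with 905 ± 193, SmD2 with 1288 ± 285, SmD3 with 2491 ± 488, SmB with 3381 ± 604 and SmD1 with 4035 ± 2484. The ranges of SmE, SNRPG, SmD2 and SmD3 did not overlap each other. The ranges of SmB and SmD3 overlapped, with ranks of 2713 to 3888 for SmB and 1927 to 2774 for SmD3, but SmD3 ranked above SmB within each of the 3 lists. SmD1 overlapped both, ranking above both in replicate 1 and below both in replicate 3, so its place in the order does not exceed the replicate spread. As a percentage of the length of each replicate list, SmB averaged 12.3 ± 0.921 and SmD3 9.03 ± 0.972, and on this scale their ranges were apart. The large spread of SmD1 came from replicate 3.

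Among bound genes the Sm genes were of ordinary strength. The signal of the strongest summit had a median of 274 over the 6 bound Sm genes, against 256 over 3930 other bound protein-coding genes, and the median ranks were 1850 and 1825. SmE exceeded 86.1% of the other bound genes, SNRPG 73.3% and SmD2 63.6%. SmD3 exceeded 35.0% of them, SmD1 19.2% and SmB 14.7%. The signal of SmE was 4.37 times the median of the thresholded list, 227, that of SNRPG 2.03 times and that of SmB 0.681 times. All 6 strongest Sm summits were upstream of the start, as were 86.9% of the others, and 5 of 6 lay within 100 bp, against 45.6%. More than 1 summit was found at 2 of 6 Sm genes (SmD2 and SNRPG) and at 13% of bound coding genes. The strongest summit moved by 28 bp (SmE) to 182 bp (SmB) between replicates, with a median of 109 bp over the 6 Sm genes against 47 bp over 3870 other bound genes. Each Sm gene has a single annotated start. For another gene with several starts near its summit, the offset was taken from 1 of them, not always the nearest. The 86.9%, 45.6% and 47 bp are therefore not measured exactly as for the Sm genes. A gene with several starts also had its strongest summit and its number of summits taken over all of them. The same limit thus applies to the medians of signal and rank, the percentages exceeded and the 13%.

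**Figure D3:**
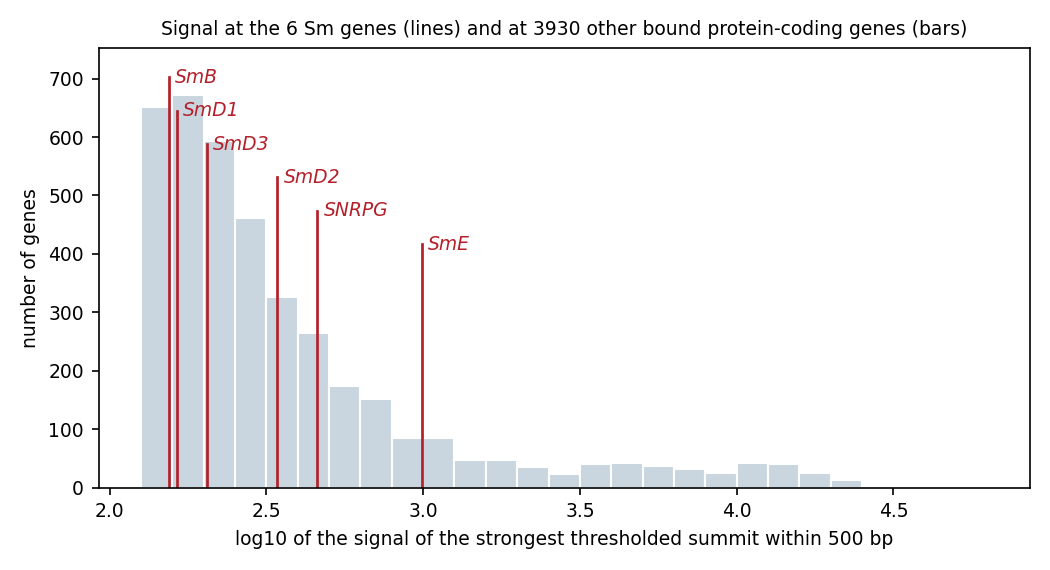
Signal of the strongest thresholded summit of each bound gene, on a log10 scale, at the 6 bound Sm genes (red lines) and at 3930 other bound protein-coding genes (bars, number of genes per bin). The lines run from 155 for SmB to 991 for SmE, and none reaches the long tail of the strongest genes.

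Promoter elements were counted on both strands in the 300 bases from 250 bp before each start to 50 bases from it. The DRE core CGATA was present at 6 Sm genes, all but SmF, against 45.7% of 19607 protein-coding starts and 55.9% of the 6450 starts of bound genes. These 6450 are all the starts of bound genes, whether or not a summit lay near the start counted. The complete DRE, which contains that core on each strand, was present at SmB and SmE, against 7.98% of all starts and 14.5% of those of bound genes. Motif 1 was present at 4 Sm genes (SmD2, SmE, SmF and SNRPG), against 6.72% and 10.6%. SmF, without a thresholded region, held Motif 1 downstream of its start, at 25 to 32 bp, and no CGATA. The Motif 1 core, which the complete motif contains, was present at 5 of 7, against 33.9% and 40.4%. For elements of other promoter classes the counts were 5 of 7 for the TATA box sequence TATAAA (42.2% of starts), 1 of 7 for GAGAG, the GAGA element (33.1%), 2 of 7 for the E-box CAGCTG (17.9%) and 2 of 7 for the initiator sequence TCAGT (52.1%). These counts take a match anywhere in the window. TATAAA read along the gene was found only at SmE and SmF, beginning at -183 and -226 bp. TCAGT lay on the opposite strand, at -155 bp (SmB) and -248 bp (SmD3), away from the start. The GC content of the window was 28.3% at SmD1, the lowest, and 49.7% at SmD3, the highest, beside a median of 39.3% over all starts.

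A complete element lay near the strongest summit at 3 Sm genes. Within 50 bp of the strongest summit, Motif 1 was found at SmE and SNRPG (2 of 6 Sm summits and 3.40% of the 4260 thresholded summits), its centre 10.5 and 28.5 bp downstream of the summit. A DRE was found within that distance at SmD1 alone (1 of 6, against 7.02%), centred at -24.5 bp relative to the summit and at -314 to -307 bp, beside the start of Ptp69D. The DREs of SmB, an overlapping pair from -237 to -224 bp, were centred at -179.5 and -173.5 bp relative to its summit, beside the start of KdelR. The DRE of SmE, at -93 to -86 bp, lay past the start of CG34132, and the Motif 1 of SmD2, at -226 to -219 bp, past that of CG18048. The DRE core was found within 50 bp of 4 of 6 Sm summits, against 30.2%. The shares of thresholded summits cover every summit wherever it lay, whereas the Sm summits are the strongest near each start, so the sets are unlike.

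**Figure D4:**
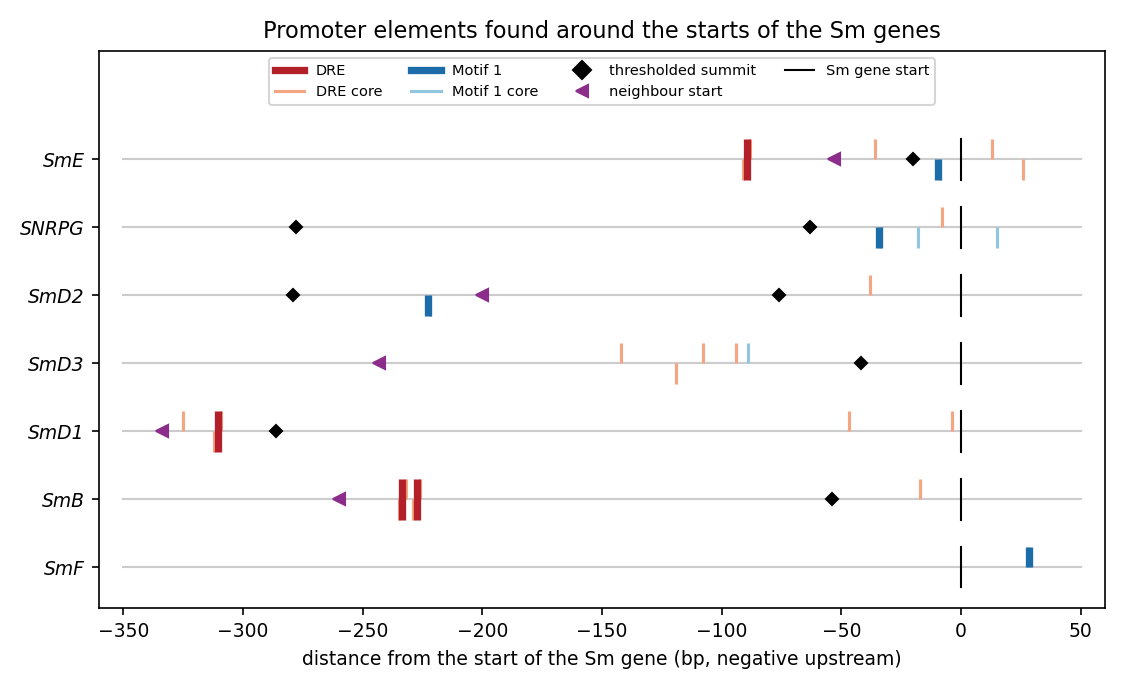
Positions of the DRE, Motif 1 and their cores around each Sm gene start, in bp with upstream negative, with marks above the line read along the gene and below it on the other strand (DREs read the same both ways). Black diamonds are thresholded summits and purple triangles head-to-head starts. Motif 1 lies close to the summit at SmE and SNRPG, and the DREs of SmB and SmD1 lie at the neighbouring start.

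The genes of 4 further protein lists, which work with the Sm ring, were bound in 28 of 55 cases (50.9%, beside 28.2% of all protein-coding genes). With a head-to-head start 22 of 36 were bound (61.1%, beside 57.6% of all such coding genes), and without one 6 of 19 (31.6%, beside 17.2%). LSm proteins form related rings on U6 RNA and on decaying mRNA. The LSm list, LSm1 to LSm7 with Lsm10 and Lsm11 but without LSm8, had 5 of 9 genes bound (55.6%, beside 28.2%). This fell to 3 of 9 with a limit of 200 bp (33.3%, beside 22.6%) and with the nearest start alone (33.3%, beside 20.6%). CG10418, the LSm2 gene, had a signal of 12264 with its summit 66 bp upstream, far above every Sm gene. LSm7 had 1303 and LSm1 267, in both cases with the summit nearer to the head-to-head start of another gene (BuGZ and Xpd), and Lsm10, a subunit of the U7 particle, had 157.

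Of the proteins particular to single spliceosomal particles, 11 of 24 genes were bound (45.8%, beside 28.2% of all protein-coding genes, as for the lists that follow). With the nearest start alone 10 of 24 were called (41.7%, beside 20.6%). The strongest were U4-U6-60K with a signal of 12616 (summit nearer to CG7564), CG10333 with 1601, Sf3b6 of the U2 particle with 1073 and noi, which encodes another U2 protein, with 612. Assembly, cap and import factors were bound in 8 of 16 cases (50%), and in 4 of 16 with the nearest start alone (25%, beside 20.6%). Among them were Cbp20 with 5292 and Cbp80 with 648, the subunits of the nuclear cap-binding complex, both with the summit nearer to another gene (CG7218 and Torsin). Smn, the survival motor neuron gene, had 461 with its summit 58 bp upstream, and coil, which encodes the Cajal body protein coilin, had 428 (nearer to Socs44A). The Prp19 complex, which joins the spliceosome during activation, had 4 of 6 genes bound (66.7%), Prp19 with 751, BCAS2 with 246, fand with 155 and crn with 139. At Prp19, BCAS2 and fand the summit was nearer to another gene, and with the nearest start alone 1 of 6 was called (16.7%, beside 20.6% of protein-coding genes). The Prp19 complex count was 2 of 6 without replicate 1 and 2 of 6 without replicate 2 (33.3%, beside 23.1% and 23.3%), and 4 of 6 without replicate 3 (66.7%, beside 24.5%).

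The RNA partners of the ring gave few calls. Of 25 small nuclear RNA genes of the classes that carry an Sm site, 1 was bound, snRNA:U4:39B with a signal of 239, and of 4 U6 class genes, which carry LSm proteins, none was, against 23% of all genes. Several of these RNA genes are near-identical copies, and how reads matching several copies were treated is not given in the sources used here, so this count is uncertain.

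**Figure D5:**
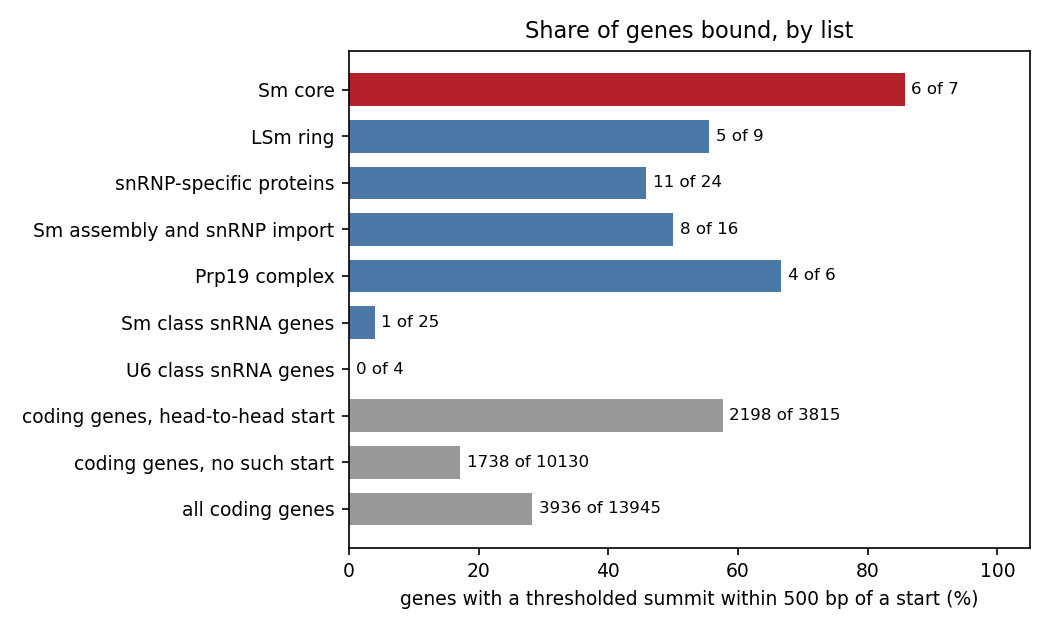
Percentage of genes that were bound, with the number of genes beside each bar, for the Sm core (red), related lists (blue) and protein-coding genes of the genome with a head-to-head start, without one, and in all (grey). The Sm core stands at 6 of 7 and the 4 related protein lists lie between 45.8% and 66.7%.

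The gene whose replicate ranks were closest to those of each Sm gene was found among 3864 bound genes by the sum, over the 3 replicates, of absolute differences in log2 rank. For SmE it was DnaJ-1, a heat shock chaperone, with ranks 423, 435 and 394 (sum 0.0845). For SNRPG it was eEF1gamma, a translation elongation factor subunit, with 950, 1027 and 646 (0.217). SmD2 was closest to CG31098 (0.121), SmD3 to CG10068 (0.104), SmB to Tmf (0.0791) and SmD1 to Actn, which encodes alpha-actinin (0.107). These matches describe the strength of the regions alone.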

How the data were processed

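Peak lists of 3 biological replicates of 1 group were used, on dm6. The authors called the regions of each replicate and of the pooled replicates, and deposited a thresholded list. The aligner, peak caller, versions and threshold are not given in the sources used here. The deposited signal of a region is the caller's own value, and the deposited -log10 q-value reaches a ceiling. The summit is an offset in each deposited line. Depth is unknown, and each SD is the spread of values from only 3 replicates.

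Genes and starts came from Ensembl 115 (BDGP 6.54) and sequence from RefSeq Release 6. The files were read in Python 3.11.15 with pandas 2.3.3 and numpy 2.4.6, and figures were drawn with matplotlib 3.10.9. The pairing of summits with starts was tested on simulated summits. Of 55 symbols in the related lists 55 were found, 7 by a synonym. No test across genes was made.

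The members, lists and motifs were chosen with earlier results of these data known. Named genes were the Sm genes, genes with a start within 500 bp of their summits, the closest gene by replicate rank, and up to 4 bound genes of largest signal per related list. Alternatives were other distances, parts of the lists, single replicates and replicates left out.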

Additional observations from a re-analysis of the deposited data

How the results depend on the processing

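Of 149 values recomputed under another setting, 120 stayed within 1.5 times the reported count or within the replicate spread and 29 did not. Some of the 120 could not have moved. Ranks in the pooled list were the same by construction, since the thresholded list is its strongest 4260 regions. A count of 6 of 7 cannot rise by 1.5 times. Each replicate rank was judged against the SD of those same ranks, so the 120 is no measure of robustness. The number of Sm genes bound was 3 of 7 (SmD2, SmE and SNRPG) with the stronger 2130 regions of the thresholded list, against 16.3% of coding genes, and 3 of 7 were found in every replicate with 2130 regions per replicate, against 12.8%. The related protein lists had 16 of 55 genes bound with the stronger 2130 regions, 18 with the nearest start alone (20.6% of coding genes) and 46 with every region of the pooled list, where all 7 Sm genes had a region, against 57.3% of coding genes. With 1 replicate left out, a summit among the strongest regions of both others was found at 5 to 6 Sm genes and at 21 to 23 genes of the related lists, against 23.1% to 24.5% of coding genes. Limits are the unknown depth, the single group, the absence of an analysed control immunoprecipitation, summits at the middle of regions of fixed width, and starts too close together for a summit to be given to 1 gene.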

Other observations

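The stretch just before the start was looked at after the motif positions had been seen. A CGATA read along the gene lay wholly within 50 bp upstream of the start at 5 of 7 Sm genes (SmB, SmD1, SmD2, SmE and SNRPG), against 2163 of 19607 protein-coding starts and 1111 of the 6450 starts of bound genes (17.2%). Since the rule was drawn from these sequences, the count is a description. The Sm genes are short, with spans of 467 to 1273 bp and a median of 912 bp, beside a median of 2166 bp over protein-coding genes.

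Of the 25 small nuclear RNA genes of Sm classes, 11 had a region of any strength in the pooled list (44%, beside 57.3% of protein-coding genes). Regions with the common width of 416 bp were weaker in the thresholded list, with a median signal of 177 against 426 for narrower ones. The strongest regions of SmE, SNRPG and SmD2 were of the narrower kind, with widths of 294, 267 and 120 bp, and those of SmD3, SmD1 and SmB had the common width.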
